A study of Homo sapiens with 12 samples.

Results

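The BCL2 family apoptosis regulators were followed in MD901, an established human diffuse large B-cell lymphoma line of germinal centre type that carries wild-type CREBBP. The 10 genes were BCL2, BCL2L1, MCL1 and BCL2A1 (pro-survival), BCL2L11, PMAIP1, BIK and BBC3 (BH3-only), and BAX and BAK1 (effectors). Each was taken by its symbol, on the locus of a primary chromosome with the highest mean, which gave 10 of the 24181 rows of the deposited RNA table. CREBBP encodes an acetyltransferase that serves as a coactivator of transcription, and the study asked what its loss does to gene expression. Of the 4 groups, 3 carried a short hairpin RNA against CREBBP (shCREBBP.1027, shCREBBP.3753 or shCREBBP.572) and 1 a scramble hairpin as control, with 3 libraries in each. All groups were grown in IMDM with 10% serum. How the hairpins were delivered, and whether the cells were pools or clones, is not given in the sources used here. The labels do not say that replicates were separate cultures, so p-values speak of the spread among these libraries alone, and that spread may be technical.

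Proteins of the BCL2 family decide whether the outer membrane of the mitochondrion stays intact. BAX and BAK1 form the pores that release cytochrome c, pro-survival members hold them and the BH3-only members in check, and BH3-only members bind the pro-survival ones or activate the effectors. BCL2 is often activated by translocation in lymphomas of germinal centre origin, and the pro-survival proteins are drug targets in B-cell malignancy.

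The libraries differed in ways that touch the results. Depth, inferred from steps between low values, ranged from 1 to 2 relative to the shallowest library, apart from scramble replicate 3 at 3.63. Scramble replicate 3 also held 6 loci over 200000 FPKM that were at 0 elsewhere. The scramble libraries correlated less well with one another (mean Spearman 0.942 to 0.959 across genes) than libraries of one hairpin did (0.972 to 0.985). Scramble replicate 1, the shallowest library, had the lowest of these values (0.942), and scramble replicate 3 was at 0.950. For libraries titled shCREBBP.1027, the descriptions and column names give the hairpin number with an added leading 1. Both were taken as the same hairpin. The targeted RNA did not follow its labels. CREBBP was at 11.4, 11.7 and 12.6 FPKM in libraries labelled shCREBBP.1027, at 5.92, 6.16 and 6.10 FPKM in those labelled shCREBBP.3753 and at 7.99, 7.53 and 6.91 FPKM in those labelled shCREBBP.572, against 13.7, 7.10 and 5.82 FPKM in scramble. It was not called lower with any hairpin, so directions are given for libraries by their labels, without a measured loss of CREBBP behind them. Of 8 B-cell markers, 7 had a mean of at least 1 FPKM and CD22 was close to 0, while summed T and NK cell, myeloid, and fibroblast and epithelial markers reached at most 3.31, 3.34 and 8.12 FPKM in any library.

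Among the 10 genes, BCL2 had the highest level per length in every group. Its mean was 232 FPKM with shCREBBP.1027, 237 with shCREBBP.3753, 282 with shCREBBP.572 and 242 in scramble. FPKM are fragments scaled to transcript length and to library size, so these levels may be set beside those of other genes. The next 4 ranks were held by PMAIP1, MCL1, BCL2L11 and BAX in changing order, followed by BIK, then BAK1 and BCL2L1, with BBC3 and BCL2A1 last in every group. PMAIP1 ranked 2 in libraries labelled shCREBBP.1027, 3 with shCREBBP.3753, 4 with shCREBBP.572 and 5 in scramble. Several neighbours did not differ beyond their spread. In scramble the ranges of MCL1, BCL2L11, BAX and PMAIP1 overlapped from each rank to the next, as did those of BAK1 and BCL2L1. With shCREBBP.3753 the ranges of MCL1 and PMAIP1 overlapped. With shCREBBP.572 those of BCL2L11 and MCL1, of PMAIP1 and BAX, and of BIK and BCL2L1 overlapped. No neighbours overlapped with shCREBBP.1027.

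**Figure D1:**
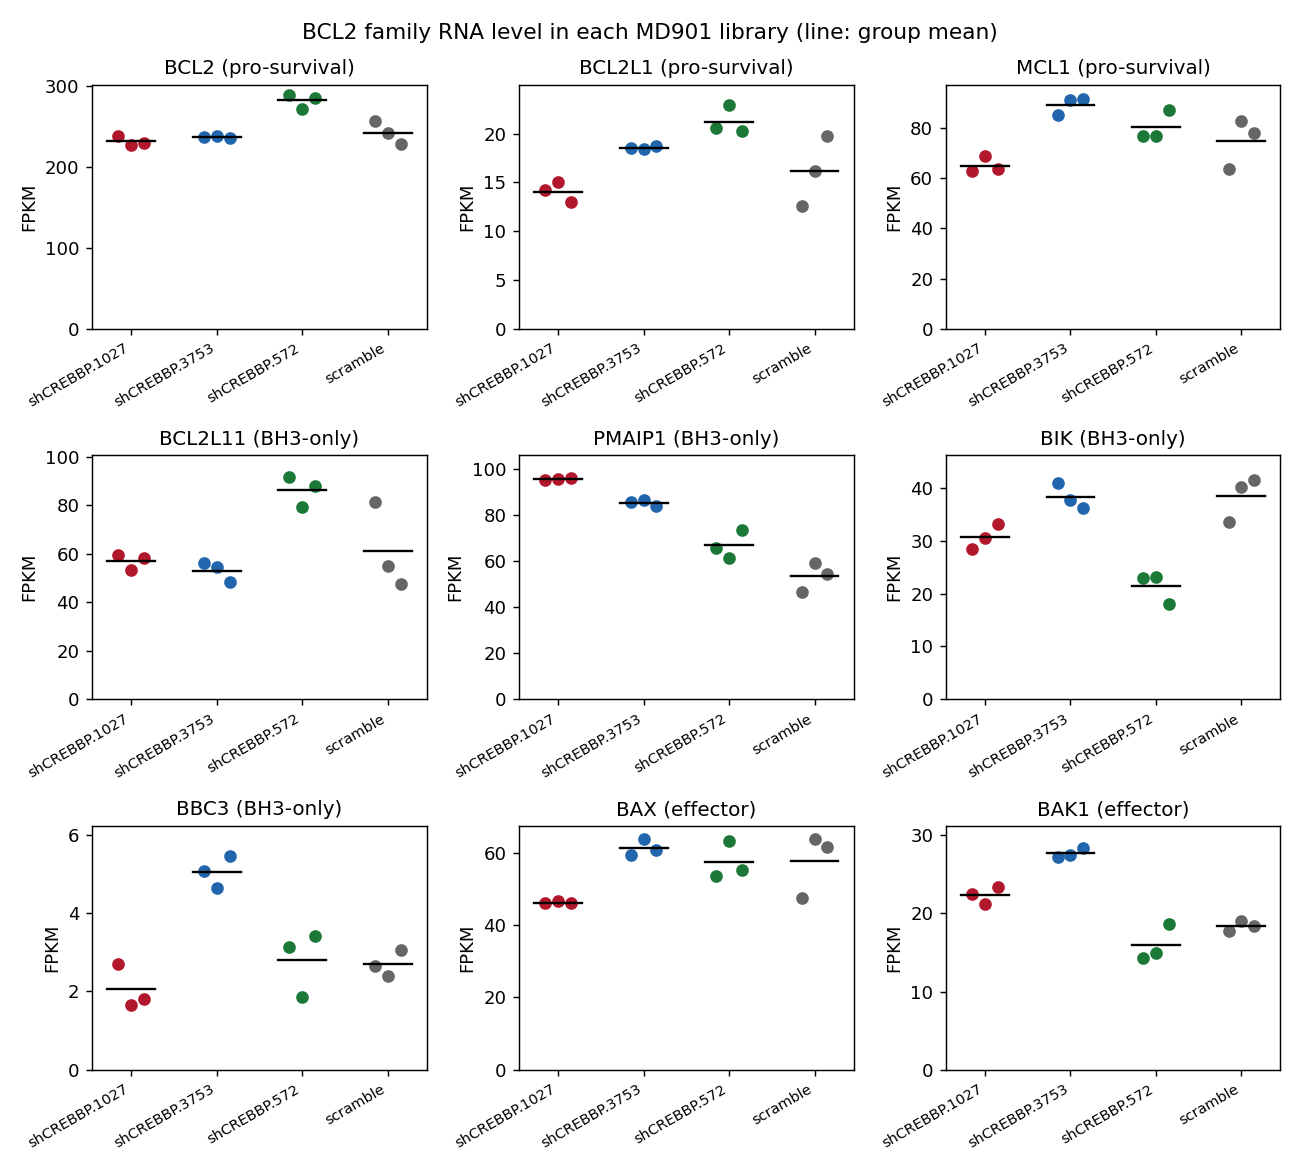
RNA level in FPKM (vertical axis, from 0) of the 9 tested BCL2 family genes in each library, with points for libraries, lines for group means and 3 libraries per group. All 9 hairpin libraries lie above the 3 scramble libraries for PMAIP1, and the scramble libraries of BCL2L11 spread between 47.4 and 81.5 FPKM.

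Averaged over the 3 hairpins, PMAIP1 rose and BIK fell relative to scramble, and the other 7 tested genes passed the threshold in neither direction. BIK did not fall with each hairpin, as its log2 difference with shCREBBP.3753 was -0.0002. A gene was called when its Benjamini-Hochberg adjusted p over all 11757 tested rows was under 0.05 in limma, fitted to log2(FPKM + 1), and a row was tested when its mean was at least 1 FPKM. Of the 9 tested genes, 1 was thus called higher and 1 lower, where 11.5% of all tested rows were called higher and 14.6% lower. The limma p of this comparison rests on the spread within groups, so it does not measure agreement among hairpins. With the 9 hairpin libraries fitted as 1 group, 101 of all tested rows were called higher and 105 lower. The median log2 difference was 0.09 for the 9 genes and -0.0026 for all tested rows. In bulk RNA, fewer cells that express a gene and less RNA per cell cannot be told apart.

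With single hairpins, other genes of the family passed as well. With shCREBBP.1027, 2 genes were higher (PMAIP1 and BAK1) and 2 lower (BIK and BAX), where 16.5% of tested rows were higher and 22.7% lower. With shCREBBP.3753, 3 were higher (PMAIP1, BAK1 and BBC3) and 0 lower, against 16.1% and 13.2% of tested rows. With shCREBBP.572, 3 were higher (BCL2, BCL2L11 and PMAIP1) and 1 lower (BIK), against 8.99% and 10.8%. PMAIP1 was the 1 gene of the 9 called in the same direction with each hairpin singly, where 1.62% of tested rows were called higher with each. No gene of the 9 was called higher with 1 hairpin and lower with another, which held for 6.36% of tested rows. In 2 of 24 alternatives this count was not 0. Without shCREBBP.572 replicate 3, BAK1 was called in opposite directions, and under array weights, which give each library its own weight, BAK1 and BCL2L1 were. The 3 hairpin comparisons share the scramble libraries. Libraries labelled shCREBBP.1027 stood wholly above scramble for 2 of the 9 genes and wholly below it for 2 (21.1% and 26.0% of tested rows). With shCREBBP.3753 these counts were 4 and 0 (25.0% and 18.3%), and with shCREBBP.572 they were 3 and 1 (16.6% and 15.6%). For the count of 0 lower with shCREBBP.3753, no gene of the 9 was lower at an unadjusted limma p under 0.05 either.

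**Figure D2:**
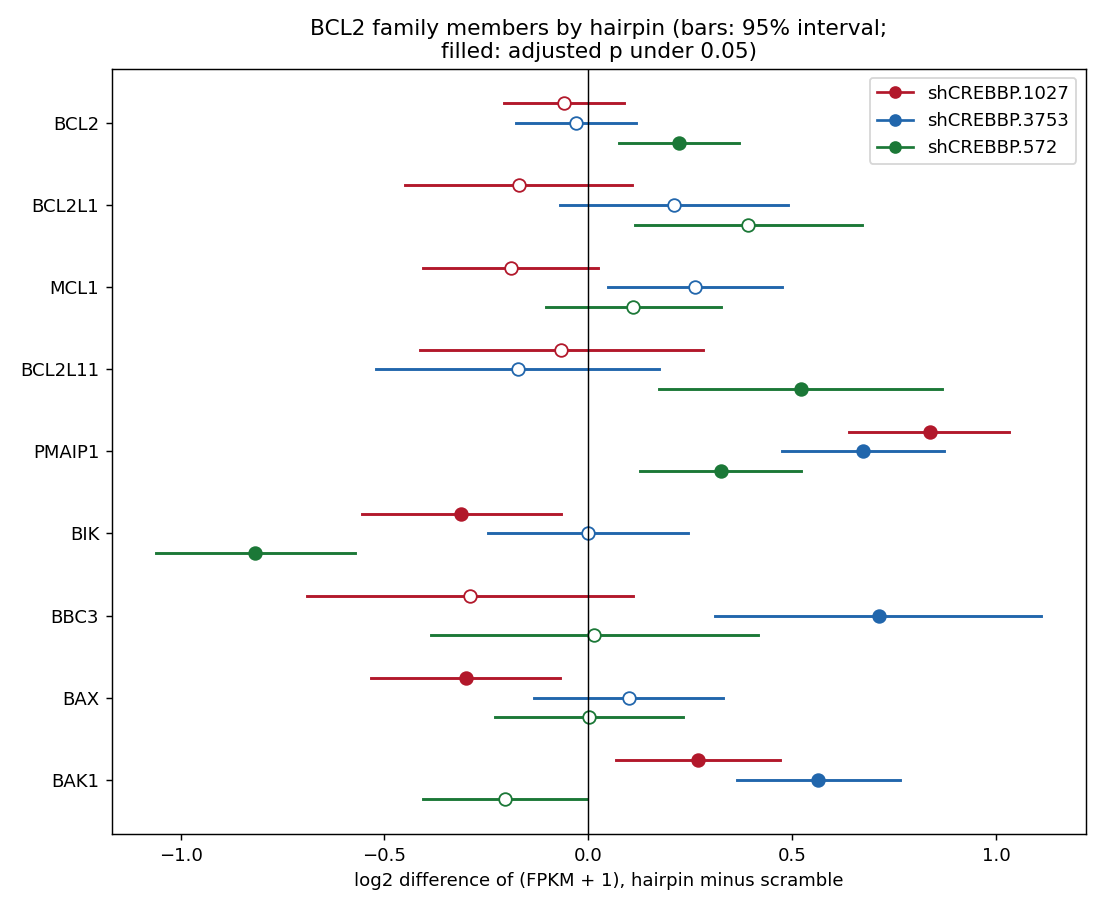
Log2 difference of (FPKM + 1), hairpin minus scramble (horizontal axis), for the 9 tested genes with each hairpin. Bars are 95% intervals and filled points have an adjusted p under 0.05; PMAIP1 lies right of 0 with all 3 hairpins, while BAK1 lies right of 0 with 2 hairpins and left of it with shCREBBP.572.

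Of the 3 tested pro-survival genes, BCL2 was called higher with 1 hairpin, and no other comparison with scramble passed the threshold. BCL2 (chromosome 18, 60790579 to 60987270, hg19), whose protein sequesters BH3-only proteins and the effectors, was at 239, 227 and 229.8 FPKM with shCREBBP.1027, at 237, 238 and 236 FPKM with shCREBBP.3753 and at 289, 272 and 286 FPKM with shCREBBP.572, against 257, 242 and 228 FPKM in scramble. The 3 libraries labelled shCREBBP.572 lay above all scramble libraries, and those of the other hairpins overlapped scramble. The log2 difference with shCREBBP.572 was 0.22 ± 0.07 (SE; limma adjusted p = 0.0376; exact permutation p = 0.1, the smallest that 3 against 3 libraries allow). The call was lost in 15 of 24 alternatives, among them the fit without scramble replicate 3 (0.18; limma adjusted p = 0.111). Averaged over the hairpins the log2 difference of BCL2 was 0.04, with an interval of -0.08 to 0.16.

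BCL2L1 (chromosome 20, 30252261 to 30311717), the gene of BCL-XL, was at 14.2, 15.1 and 12.9 FPKM with shCREBBP.1027, at 18.6, 18.4 and 18.8 FPKM with shCREBBP.3753 and at 20.6, 22.9 and 20.2 FPKM with shCREBBP.572, against 12.6, 16.1 and 19.8 FPKM in scramble. Here scramble spanned most of the hairpin range, and the libraries labelled shCREBBP.572 alone stood above it. Their log2 difference of 0.39 ± 0.13 (SE) missed the threshold (limma adjusted p = 0.0510; exact p = 0.1). Without scramble replicate 3, BCL2L1 was called higher in the averaged comparison (0.29; limma adjusted p = 0.0433), with shCREBBP.3753 (0.36; 0.0288) and with shCREBBP.572 (0.54; 0.00689). Without scramble replicate 1 these differences were -0.01, 0.05 and 0.24, and none was called. In all, BCL2L1 was called higher with shCREBBP.572 in 6 of 24 alternatives.

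MCL1, a pro-survival protein of short half-life, shared its row with ADAMTSL4-AS1 (chromosome 1, 150521845 to 150552214), so its value is uncertain to the extent that reads of the antisense gene entered it. It was at 62.8, 68.8 and 63.7 FPKM with shCREBBP.1027, at 85.3, 91.3 and 91.5 FPKM with shCREBBP.3753 and at 77.0, 77.1 and 87.4 FPKM with shCREBBP.572, against 63.6, 82.9 and 78.0 FPKM in scramble. The libraries labelled shCREBBP.3753 lay above all scramble libraries, with a log2 difference of 0.26 ± 0.10 (SE; limma adjusted p = 0.0641; exact p = 0.1). No comparison of MCL1 with scramble passed the threshold. Without scramble replicate 1, MCL1 was called lower with shCREBBP.1027 (-0.30; limma adjusted p = 0.00626), and without scramble replicate 2 it was called higher with shCREBBP.3753 (0.34; limma adjusted p = 0.0319). Other omissions made these values smaller: MCL1 was at a log2 difference of 0.15 with shCREBBP.3753 without scramble replicate 1 (limma adjusted p = 0.142), and at -0.11 with shCREBBP.1027 without scramble replicate 2 (0.413). MCL1 was called higher with shCREBBP.3753 in 4 of 24 alternatives.

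BCL2A1 (chromosome 15, 80253232 to 80263643), a pro-survival gene known as an NF-kappaB target, was listed at 0 in 11 of 12 libraries and at 0.330 FPKM in shCREBBP.3753 replicate 1. It was not tested. An exact 0 in such a table can be a failed estimate.

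PMAIP1 encodes NOXA, a BH3-only protein that binds chiefly MCL1 (chromosome 18, 57567192 to 57574251, hg19, 3.22 Mb from BCL2). It was at 95.1, 95.5 and 95.8 FPKM with shCREBBP.1027, at 85.4, 86.2 and 83.7 FPKM with shCREBBP.3753 and at 65.6, 61.4 and 73.3 FPKM with shCREBBP.572, against 46.5, 59.0 and 54.3 FPKM in scramble. Every hairpin library stood above every scramble library, which held for 3.78% of all tested rows, and the libraries of the hairpins did not overlap one another. The averaged log2 difference was 0.61 ± 0.07 (SE), or 1.53-fold on the (FPKM + 1) scale (limma adjusted p = 1.9e-04; exact p = 0.00455, the smallest that 220 splits allow; higher in 9 of 9 libraries). It was 0.84 ± 0.09 with shCREBBP.1027 (limma adjusted p = 3.5e-05), 0.67 ± 0.09 with shCREBBP.3753 (3.3e-04) and 0.32 ± 0.09 with shCREBBP.572 (0.0266), each with an exact p of 0.1. Without scramble replicate 3 these 4 differences were 0.63, 0.85, 0.69 and 0.34, and all were called. The smallest values in any fit that left out 1 library were 0.52, 0.74, 0.58 and 0.23, in the same order. The rise with shCREBBP.572 was not called in 5 of 24 alternatives, among them without shCREBBP.572 replicate 1 (limma adjusted p = 0.0639) or replicate 3 (0.104), and it was 0.20 under array weights. The averaged rise was not called when the 9 hairpin libraries were fitted as 1 group (0.0530). The 220 splits likewise count these 9 libraries as separate units, although the hairpins differed from one another. The exact permutation p of 0.00455 therefore does not measure agreement among independent hairpins.

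PMAIP1 is shown with its upstream sequence because it was called in every comparison with scramble. The 250 bases before its RefSeq start, on GRCh38.p14 at chr18:59899746-59899995 on the plus strand, are printed 5′ to 3′, with capitals at matches on either strand to TGACG (the half-site of CREB, a factor that CREBBP binds), CACGTG (an E-box), GGGCGG (a GC box) and CCAAT.
PMAIP1: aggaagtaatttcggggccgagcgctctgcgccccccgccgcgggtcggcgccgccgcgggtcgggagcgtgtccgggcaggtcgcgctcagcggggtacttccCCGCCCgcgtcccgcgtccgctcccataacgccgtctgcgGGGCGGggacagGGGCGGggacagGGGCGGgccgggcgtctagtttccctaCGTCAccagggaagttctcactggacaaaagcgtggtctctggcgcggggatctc
This window held 1 TGACG, 55 bases before the start and on the minus strand, and 4 GGGCGG, at 146, 106, 94 and 82 bases, with no overlap between them. Over 35114 windows of the same length, TGACG stood in 21.2%, CACGTG in 6.35%, GGGCGG in 42.6% and CCAAT in 32% of windows. BCL2 and 1 of 2 BCL2L1 windows also held TGACG, as did BAX. A match is a run of letters and not a measured binding site.

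BIK (chromosome 22, 43506727 to 43526613), a BH3-only protein that binds BCL2 and BCL-XL, was at 28.4, 30.6 and 33.1 FPKM with shCREBBP.1027, at 41.0, 37.9 and 36.3 FPKM with shCREBBP.3753 and at 23.0, 23.2 and 18.1 FPKM with shCREBBP.572, against 33.6, 40.3 and 41.5 FPKM in scramble. Libraries labelled shCREBBP.572 and shCREBBP.1027 lay below all scramble libraries, while those of shCREBBP.3753 lay within the scramble range. BIK fell with shCREBBP.572 by 0.82 on the log2 scale (SE 0.11; limma adjusted p = 4.7e-04; exact p = 0.1), and the call was kept in all 24 alternatives, with -0.76 without scramble replicate 3. The difference was -0.31 ± 0.11 with shCREBBP.1027 (limma adjusted p = 0.0441), a call lost in 15 of 24 alternatives. Averaged over the hairpins it was -0.38 ± 0.09 (SE; limma adjusted p = 0.0111; exact permutation p = 0.123; below the scramble mean in 8 of 9 libraries). This call was lost in 4 of 24 alternatives, among them without scramble replicate 2 (-0.34; limma adjusted p = 0.0509) or replicate 3 (-0.32; 0.0516). With shCREBBP.3753 the log2 difference was between -0.24 and 0.24 (95% interval).

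BCL2L11, the gene of BIM, which removes self-reactive lymphocytes in mice, shared its row with ACOXL over 437.7 kb (chromosome 2, 111490150 to 111927812), and its value is uncertain for that reason. It was at 59.6, 53.4 and 58.2 FPKM with shCREBBP.1027, at 56.0, 54.6 and 48.2 FPKM with shCREBBP.3753 and at 91.7, 79.1 and 87.9 FPKM with shCREBBP.572, against 81.5, 55.0 and 47.4 FPKM in scramble. The libraries labelled shCREBBP.572 overlapped scramble through scramble replicate 1 alone. The log2 difference of 0.52 ± 0.16 (SE, limma adjusted p = 0.0390, exact permutation p = 0.2) was not called in 16 of 24 alternatives. It was 0.36 without scramble replicate 3 and 0.74 without scramble replicate 1. Without scramble replicate 1 it was called, as was the averaged difference of BCL2L11 (0.31; limma adjusted p = 0.0141).

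BBC3, the gene of PUMA, a target of p53 that binds all pro-survival members, shared its row with MIR3191 (chromosome 19, 47724079 to 47736023). It was at 2.70, 1.65 and 1.82 FPKM with shCREBBP.1027, at 5.07, 4.65 and 5.47 FPKM with shCREBBP.3753 and at 3.13, 1.86 and 3.41 FPKM with shCREBBP.572, against 2.66, 2.40 and 3.06 FPKM in scramble. The 3 libraries labelled shCREBBP.3753 stood above all the others. Their log2 difference from scramble was 0.71 ± 0.18 (SE; limma adjusted p = 0.0132; exact p = 0.1), a scale that understates changes at so low a level. Without shCREBBP.3753 replicate 3 the call was lost (0.66; limma adjusted p = 0.0532), and without scramble replicate 3 it was kept (0.78; limma adjusted p = 0.0176).

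Of the 2 effectors, BAX was called lower with 1 hairpin and BAK1 higher with 2. BAX (chromosome 19, 49458117 to 49465062, 1.72 Mb from BBC3) was at 46.2, 46.6 and 46.1 FPKM with shCREBBP.1027, at 59.4, 63.9 and 60.8 FPKM with shCREBBP.3753 and at 53.6, 63.3 and 55.4 FPKM with shCREBBP.572, against 47.5, 63.9 and 61.8 FPKM in scramble. Libraries labelled shCREBBP.1027 were alike and lay just below scramble replicate 1, the lowest scramble library. BAX was called lower with shCREBBP.1027 (log2 difference -0.30 ± 0.11, SE; limma adjusted p = 0.0410; exact p = 0.1), but in 13 of 24 alternatives it was not, among them without scramble replicate 2 (-0.22; 0.145) or 3 (-0.25; 0.125). With shCREBBP.572 the 95% interval of the BAX difference ran from -0.23 to 0.23.

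BAK1 (chromosome 6, 33540323 to 33548070) was at 22.5, 21.3 and 23.4 FPKM with shCREBBP.1027, at 27.2, 27.5 and 28.4 FPKM with shCREBBP.3753 and at 14.3, 14.9 and 18.7 FPKM with shCREBBP.572, against 17.8, 19.1 and 18.4 FPKM in scramble. Libraries labelled shCREBBP.1027 and shCREBBP.3753 stood above all scramble libraries, and 2 of the 3 labelled shCREBBP.572 stood below them. BAK1 rose with shCREBBP.3753 (log2 difference 0.56 ± 0.09, SE; limma adjusted p = 0.00107; exact p = 0.1), a call kept in all 24 alternatives. Its rise with shCREBBP.1027 (0.27 ± 0.09; limma adjusted p = 0.0362) was not called in 8 of 24 alternatives, among them without scramble replicate 3 (0.27; 0.0730). The difference with shCREBBP.572 was -0.20 ± 0.09 (limma adjusted p = 0.144) and the averaged one was 0.21 ± 0.07 (limma adjusted p = 0.0597; exact p = 0.336). Without shCREBBP.572 replicate 3, BAK1 was called lower with shCREBBP.572 (-0.32; limma adjusted p = 0.0161), as under array weights (-0.28; 0.0178), and without shCREBBP.572 replicate 1 the difference was -0.13 (0.401). The averaged difference was called higher in 5 of 24 alternatives.

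The upstream windows of the effectors are set beside each other because BAX and BAK1 share a function and were called in opposite directions with shCREBBP.1027. These calls were lost in 13 of 24 alternatives for BAX and in 8 of 24 for BAK1. A link between the sequences and the calls was not tested. BAX lies on the plus strand at chr19:48954625-48954874 and BAK1 on the minus strand at chr6:33580277-33580526 (GRCh38.p14, RefSeq starts), with capitals as for PMAIP1.
BAX: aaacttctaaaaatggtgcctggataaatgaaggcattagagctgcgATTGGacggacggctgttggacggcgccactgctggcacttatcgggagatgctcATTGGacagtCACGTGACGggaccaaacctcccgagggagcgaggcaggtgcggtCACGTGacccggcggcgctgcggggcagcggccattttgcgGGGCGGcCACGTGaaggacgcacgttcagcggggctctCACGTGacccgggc
BAK1: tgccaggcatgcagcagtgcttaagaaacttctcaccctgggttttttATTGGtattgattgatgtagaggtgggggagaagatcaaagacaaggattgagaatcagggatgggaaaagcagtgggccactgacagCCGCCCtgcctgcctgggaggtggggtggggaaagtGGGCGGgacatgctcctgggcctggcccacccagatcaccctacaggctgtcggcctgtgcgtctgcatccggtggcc
BAX held 4 CACGTG, 1 TGACG that overlaps one of them, 1 GGGCGG and 2 CCAAT. BAK1 held 2 GGGCGG and 1 CCAAT, with no TGACG or CACGTG in these letters. RefSeq windows were at hand for 8 of the 10 genes.

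Between the hairpins, the 9 tested genes all differed by limma's F test at an adjusted p under 0.05, as did 56.4% of all tested rows. The smallest adjusted p were those of BAK1 (1.1e-04) and BIK (2.9e-04), and the largest was that of BAX (0.0166), whose call was lost without shCREBBP.1027 replicate 1 (0.0524) or replicate 3 (0.0533). Of the 9 genes, 6 were higher and 0 lower in libraries labelled shCREBBP.3753 than in those labelled shCREBBP.1027, where 25.3% and 15.3% of tested rows were called. No gene of the 9 was lower there at an unadjusted limma p under 0.05. These 6 were BCL2L1, MCL1, BIK, BBC3, BAX and BAK1, and BBC3 had the largest log2 difference, 1.00 ± 0.18 (SE; limma adjusted p = 0.00116). Of 22 alternatives, the call was lost in 12 for BIK, in 7 for BCL2L1 and in 7 for BAK1. Under quantile normalization (-0.25), upper quartile scaling (-0.27) and array weights (-0.16), PMAIP1 was called lower with shCREBBP.3753 than with shCREBBP.1027.

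Comparing shCREBBP.572 with shCREBBP.1027, 5 genes were higher (BCL2, BCL2L1, MCL1, BCL2L11 and BAX) and 3 lower (PMAIP1, BIK and BAK1), against 23.9% and 17.6% of tested rows. Of 22 alternatives, the call was lost in 10 for BAX, in 4 for MCL1 and in 1 each for BCL2 and BCL2L11. The 3 lower genes were 2 BH3-only genes and 1 effector, with log2 differences of -0.51 ± 0.09 for PMAIP1, -0.51 ± 0.11 for BIK and -0.47 ± 0.09 for BAK1 (SE). Between shCREBBP.572 and shCREBBP.3753, 2 genes were higher (BCL2 and BCL2L11) and 4 lower (PMAIP1, BIK, BBC3 and BAK1), against 14.7% and 18.0%. BIK and BAK1 differed most there, by -0.82 ± 0.11 (limma adjusted p = 2.3e-04) and -0.77 ± 0.09 (8.8e-05). PMAIP1 was lower with shCREBBP.572 than with either other hairpin, and its difference between shCREBBP.3753 and shCREBBP.1027 was -0.16 ± 0.09 (limma adjusted p = 0.172). BCL2 differed by 0.25 ± 0.07 and BCL2L11 by 0.69 ± 0.16 between shCREBBP.572 and shCREBBP.3753, both called higher. Of 22 alternatives, BCL2 lost this call in 1, without shCREBBP.572 replicate 1 (limma adjusted p = 0.0560), and PMAIP1 lost its own in 1, without shCREBBP.572 replicate 2 (0.0533).

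**Figure D3:**
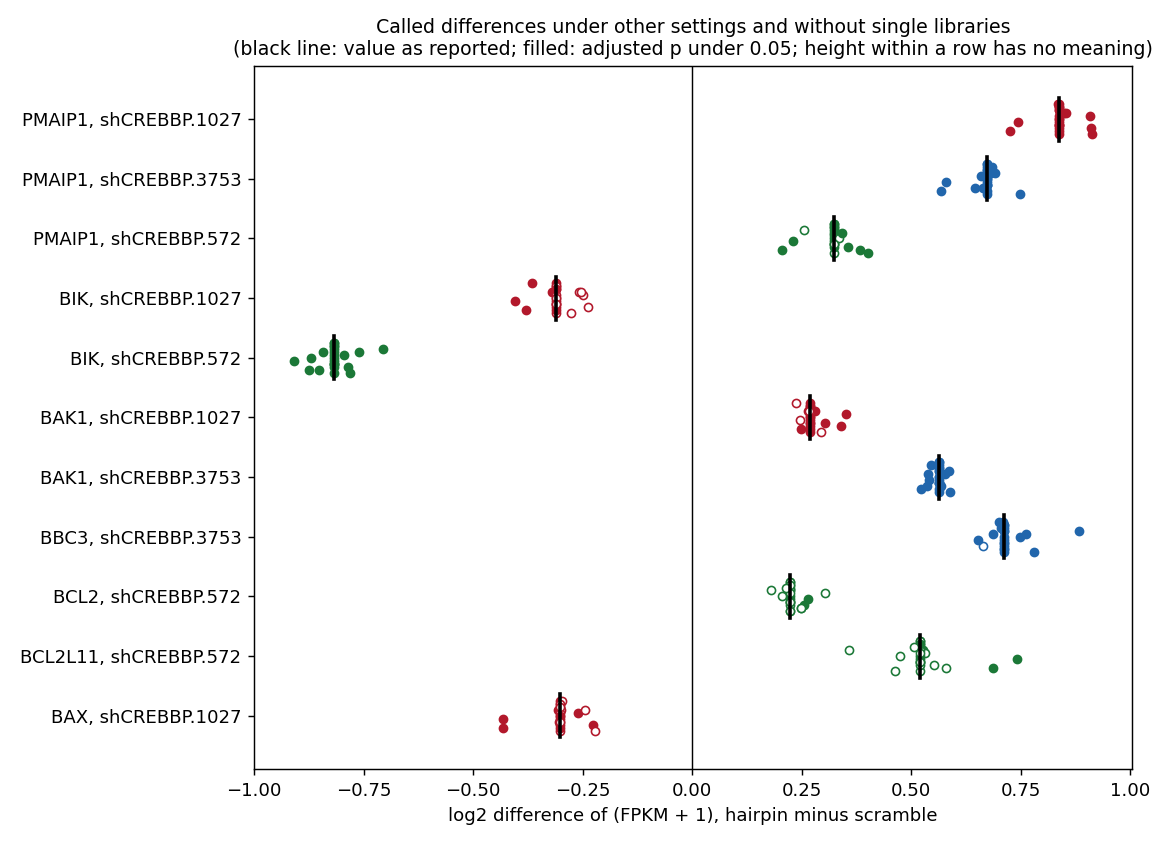
The 11 differences from scramble called for single hairpins (rows), each under the other settings and with single libraries left out (points), on the log2 (FPKM + 1) scale. Filled points have an adjusted p under 0.05 and black lines are the values as reported; PMAIP1 with shCREBBP.1027 and shCREBBP.3753, BIK with shCREBBP.572 and BAK1 with shCREBBP.3753 show filled points throughout.

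Sums by role cover the 10 listed genes alone. The BH3-only RNAs among them came to 181 to 189.0 FPKM per library labelled shCREBBP.1027 and 174 to 188 FPKM for shCREBBP.3753. They came to 166 to 184 FPKM for shCREBBP.572, against 146 to 164 FPKM in scramble. All 9 hairpin libraries thus lay above scramble in this sum, although BIK was lower with 2 of the hairpins. The sum contains PMAIP1, which itself stood above scramble in all 9, and the shared row of BCL2L11. It leaves out further BH3-only genes, such as BID, HRK and BMF. PMAIP1 made up 51.5% ± 1.05 of the BH3-only sum for shCREBBP.1027, 46.9% ± 1.33 for shCREBBP.3753 and 37.7% ± 2.24 for shCREBBP.572, against 34.3% ± 5.25 in scramble (SD, n = 3 each). BIK made up 16.6% ± 1.16, 21.1% ± 0.64 and 12.2% ± 2.08 in the same hairpin order, against 24.9% ± 4.03 in scramble. The pro-survival sum was 307 to 316 FPKM for shCREBBP.1027, 341.1 to 348 FPKM for shCREBBP.3753 and 372 to 393 FPKM for shCREBBP.572, against 326 to 340.8 FPKM in scramble. It was thus lowest in libraries labelled shCREBBP.1027 and highest in those labelled shCREBBP.572, and BCL2 was 68.1% to 77.1% of it in every library. This share is of the listed genes and leaves out the shared row of BCL2L2, at group means of 70.4 to 83.1 FPKM. The effector sum was 67.9 to 69.5 FPKM for shCREBBP.1027, 86.6 to 91.4 FPKM for shCREBBP.3753 and 67.8 to 78.2 FPKM for shCREBBP.572, against 65.3 to 83.0 FPKM in scramble. BAK1 held 32.6% ± 1.19 of it with shCREBBP.1027 and 31.1% ± 0.91 with shCREBBP.3753 but 21.8% ± 3.16 with shCREBBP.572, against 24.4% ± 2.49 in scramble (SD, n = 3 each). These sums are descriptions and were not tested.

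B-cell markers differed between the groups too. Summed over 8 markers they were at 336 to 354 FPKM for shCREBBP.1027, 466 to 497 FPKM for shCREBBP.3753 and 291 to 308 FPKM for shCREBBP.572, against 350.1 to 418 FPKM in scramble. Of the 7 tested markers, 4 were called lower with shCREBBP.1027, where 22.7% of all tested rows were lower. With shCREBBP.3753, 2 were higher and 1 lower, against 16.1% and 13.2% of tested rows. With shCREBBP.572, 4 were lower, against 10.8%. MS4A1, the gene of CD20, named after its values were seen, was at 0.591 to 0.854 FPKM with shCREBBP.572 against 5.26 to 7.24 FPKM in scramble. The part of these markers in the differences of the BCL2 family genes was not tested. The spread among scramble libraries was the largest of the 4 groups, as a coefficient of variation, for 6 of the 9 genes (66.7%), against 53.8% of all tested rows.

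Other genes of the BCL2 family were measured on 13 rows, 8 of them tested, and 1 was higher and 2 were lower in the averaged comparison, where 11.5% of all tested rows were higher and 14.6% lower. BCL2L13, a mitochondrial protein known as a receptor for mitophagy, was at 17.5 ± 0.95 FPKM with shCREBBP.1027, 19.8 ± 0.94 FPKM with shCREBBP.3753 and 16.0 ± 0.81 FPKM with shCREBBP.572, against 12.8 ± 1.55 in scramble (SD, n = 3 each). Like PMAIP1 it was higher in 9 of 9 hairpin libraries, which held for 3.78% of all tested rows. Its averaged log2 difference was 0.45 ± 0.07 (SE, limma adjusted p = 0.00125, exact permutation p = 0.00455 with the limit given for PMAIP1). It was called with each hairpin, though with shCREBBP.572 not in 8 of 24 alternatives. BNIP3L, a mitophagy receptor, fell with shCREBBP.1027 to 6.82 ± 0.32 FPKM, against 24.9 ± 4.53 in scramble (log2 difference -1.71 ± 0.15; limma adjusted p = 8.4e-06), and was at 24.2 ± 1.52 with shCREBBP.3753 and 20.0 ± 3.96 with shCREBBP.572. BCL2L12 was lower with shCREBBP.1027 (13.5 ± 0.66 FPKM) and shCREBBP.3753 (12.6 ± 0.69) than in scramble (16.6 ± 0.18), and was at 15.7 ± 1.00 with shCREBBP.572.

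BID, a BH3-only protein activated by caspase cleavage, was called higher with shCREBBP.1027 (20.6 ± 1.31 FPKM against 16.3 ± 2.43 in scramble; log2 difference 0.33; limma adjusted p = 0.0292), though not in 7 of 24 alternatives. HRK, a BH3-only gene best known from neurons, fell with shCREBBP.572 (3.72 ± 0.79 FPKM against 5.73 ± 0.22 in scramble; -0.52; limma adjusted p = 0.0107), as BIK did, and was at 7.56 ± 0.32 FPKM with shCREBBP.3753 (limma adjusted p = 0.0508). BCL2L2, which shared its row with PABPN1, BAD and BNIP3 were not called in any comparison with scramble, with averaged log2 differences of -0.02 ± 0.08, -0.10 ± 0.08 and 0.37 ± 0.25 (SE). BCL2L10, BMF, BOK, BCL2L14 and BCL2L15 had means under 1 FPKM and were not tested. Among them BMF, a BH3-only gene, was at 1.48 to 1.71 FPKM in libraries labelled shCREBBP.3753 and at most at 0.918 FPKM elsewhere.

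Genes that act before and after the BCL2 family were counted in the averaged comparison, to be read beside the 11.5% of all tested rows called higher and 14.6% called lower. The averaged limma p-values again do not measure agreement among hairpins. Each averaged call named from these lists was lost in at least 1 alternative. Of 14 apoptosome, caspase and inhibitor rows, 2 were higher and 3 lower. BIRC3, an inhibitor of apoptosis and NF-kappaB target, was at 25.1 ± 1.58 FPKM with shCREBBP.1027, 29.7 ± 1.61 FPKM with shCREBBP.3753 and 16.1 ± 1.92 FPKM with shCREBBP.572, against 13.1 ± 0.98 in scramble (averaged log2 difference 0.76 ± 0.08; limma adjusted p = 4.9e-05), and was not called with shCREBBP.572 singly (0.0568). ENDOG, a mitochondrial nuclease (-0.58 ± 0.12; limma adjusted p = 0.00491), and XIAP, a direct caspase inhibitor (-0.38 ± 0.06; limma adjusted p = 0.00155), were lower. Their exact permutation p were 0.0455 for ENDOG and 0.136 for XIAP. ENDOG fell with shCREBBP.1027 (-1.13; limma adjusted p = 1.3e-04) and was not called with shCREBBP.3753 (-0.28; 0.175) or shCREBBP.572 (-0.32; 0.150). XIAP fell with shCREBBP.1027 and shCREBBP.572 (5.97 ± 0.51 and 5.97 ± 0.40 FPKM, against 9.48 ± 0.28 in scramble) and was at 9.74 ± 0.27 FPKM with shCREBBP.3753. BIK was called lower with the same pair of hairpins.

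Of 9 death receptor pathway rows, 4 were higher and 0 lower in the averaged comparison (11.5% and 14.6% of all tested rows), and 0 were lower at an unadjusted limma p under 0.05. CASP10 (0.58 ± 0.13, limma adjusted p = 0.00643) and CASP8 (0.32 ± 0.08, limma adjusted p = 0.0130), both initiator caspases, were higher in 9 of 9 hairpin libraries. Every hairpin library stood above every scramble library for 3.78% of all tested rows. The call of CASP10 with shCREBBP.572 singly (0.49; limma adjusted p = 0.0464) was lost in 15 of 23 alternatives. RIPK1, a kinase of death receptor complexes (0.34 ± 0.10; limma adjusted p = 0.0276), was called singly with shCREBBP.3753, at 13.1 ± 1.39 FPKM against 6.62 ± 1.10 in scramble. The averaged call of RIPK1 was lost without scramble replicate 1 (0.29; limma adjusted p = 0.0861) or 3 (0.27; 0.112), and that of CASP8 without scramble replicate 2 (0.29; limma adjusted p = 0.0558).

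Of 14 tested transcription factor rows known to act on BCL2 family genes, 3 were higher and 5 lower. NFKB2 was higher (averaged log2 difference 0.50 ± 0.08; limma adjusted p = 8.1e-04) and NFKB1 lower (-0.41 ± 0.07; limma adjusted p = 0.00161), though NFKB1 was not called with shCREBBP.572 singly (-0.14; 0.305). The call of NFKB2 with shCREBBP.3753 singly (0.28; limma adjusted p = 0.0408) was lost in 15 of 24 alternatives. E2F1, on a row with NECAB3, was at 13.7 ± 1.42 FPKM with shCREBBP.1027 and 14.2 ± 1.27 with shCREBBP.3753, both called lower, and at 31.5 ± 3.04 with shCREBBP.572, called higher, against 25.0 ± 1.28 in scramble. The rise of E2F1 with shCREBBP.572 was not called in 11 of 24 alternatives. Of 6 rows for protein stability or placement, 2 were higher and 0 lower, and 0 were lower at an unadjusted limma p under 0.05. They were FBXW7, a ubiquitin ligase subunit that marks MCL1 (0.43 ± 0.08; limma adjusted p = 0.00264), and FBXO10, which marks BCL2 (0.39 ± 0.07; limma adjusted p = 0.00301). FBXW7 stood higher in 9 of 9 hairpin libraries, which held for 3.78% of all tested rows. The margin was narrow, with 29.79 FPKM in shCREBBP.3753 replicate 3 against 29.71 FPKM in scramble replicate 2. Its call with shCREBBP.3753 singly (0.29, limma adjusted p = 0.0405) was lost in 11 of 24 alternatives. FBXO10 was at 3.98 ± 0.24 FPKM with shCREBBP.572 against 3.82 ± 0.29 in scramble.

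**Figure D4:**
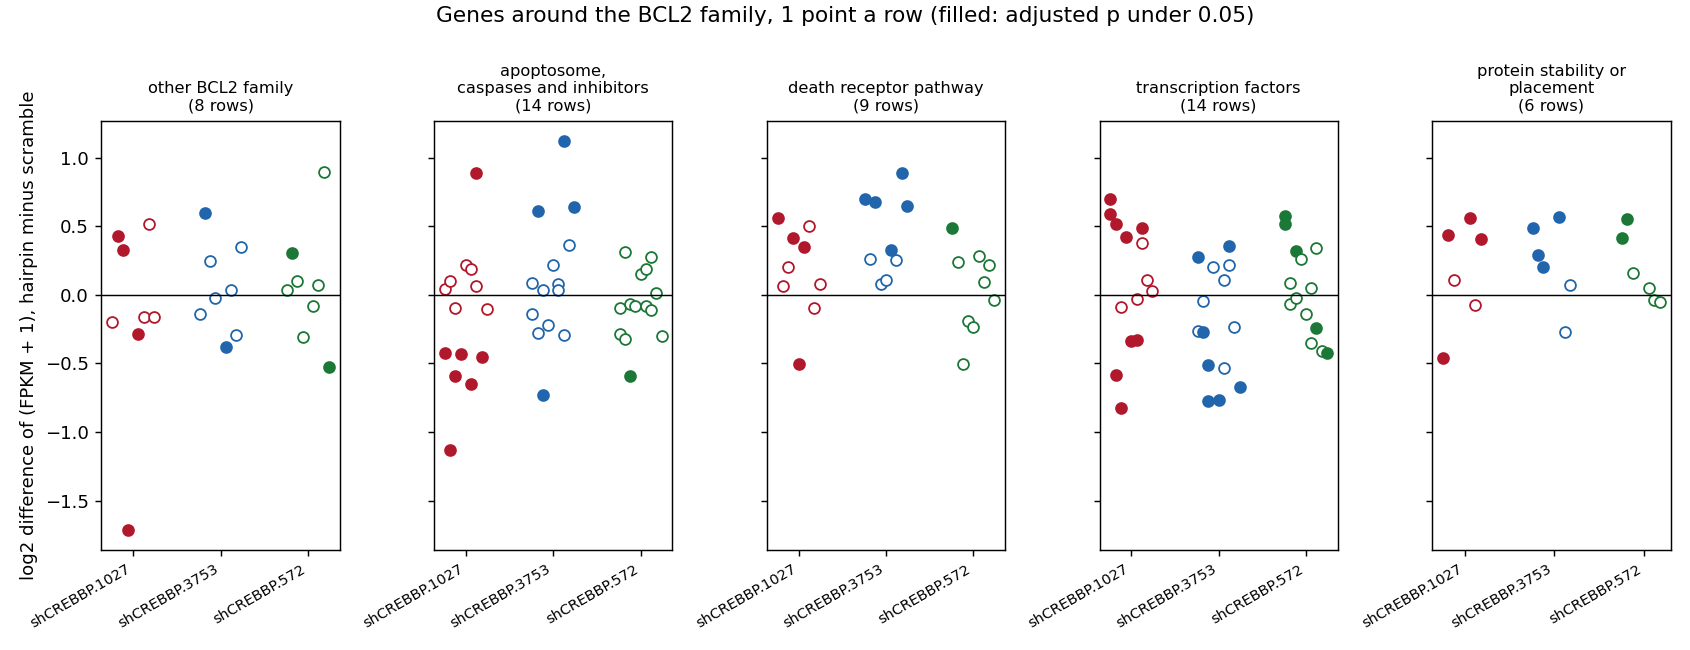
Log2 difference of (FPKM + 1), hairpin minus scramble (vertical axis), for tested rows of 5 gene lists around the BCL2 family, with 1 point a row and filled points for an adjusted p under 0.05. The lowest point is BNIP3L with shCREBBP.1027 at -1.71, and the highest is BIRC3 with shCREBBP.3753 at 1.12.

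The rows whose log2 values over the 12 libraries were most like those of PMAIP1, BAK1 and BIK were found by Pearson's r among 10421 rows. The libraries fall into 4 groups, so r mostly reflects group means. For PMAIP1 they included KIAA0232 (r = 0.97) and ALOX5AP (0.959). ALOX5AP was at 125 ± 4.13 FPKM with shCREBBP.1027, 117 ± 11.3 FPKM with shCREBBP.3753 and 67.8 ± 4.49 with shCREBBP.572, against 42.8 ± 3.28 in scramble, which is the order of groups seen for PMAIP1. For BAK1 they were KCTD21 (0.97), IFNAR1 (0.968) and MCCC2 (0.964), and for BIK they were LSM11 (0.968), DTX4 (0.966) and LCLAT1 (0.961).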

How the data were processed

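RNA over 200 nt was sequenced after ribosomal RNA removal, by a stranded protocol, per the labels' protocols. The authors deposited 1 table of values per library, read here as FPKM; the header does not state the unit. The submitters' processing notes name CASAVA 1.8, TopHat2, Cufflinks and hg19. The sources used here do not give the annotation or the use of strand. Reads per library are unknown, so no counting interval is given. Columns of 3 other samples were not used.

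Values were tested as log2(FPKM + 1) over the 11757 rows averaging 1 FPKM or more, by limma 3.58.1 in R 4.3.3 with a mean for each of 4 groups, a variance trend and Benjamini-Hochberg adjustment over all tested rows of each contrast (threshold 0.05). Two-sided exact permutation tests stood beside it. In the averaged comparison they split all 12 libraries freely, so libraries of the same hairpin counted as separate units. Rows with several names or antisense partners are uncertain. Same-numbered replicates were not paired by the labels. Named were all 10 members, every tested further family gene, up to 3 called rows per other list by size, and the 3 rows most like PMAIP1, BAK1 and BIK, of which 1 is not reported here; BMF, MS4A1 and CD22 were added after their values were seen. The members and lists were chosen with earlier results of these data known. Alternatives were other pseudocounts, filters, scalings, variance settings, a replicate block, fits of fewer groups and leaving out each library; 1, a separate spread for each group, was chosen after seeing the data. Promoter sequences are RefSeq's on GRCh38.p14.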

Additional observations from a re-analysis of the deposited data

Results flagged for a closer look

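For 9 of the 9 tested genes the difference from scramble differed between the hairpins by limma's F test, which also held for 56.4% of all tested rows. The adjusted p was 0.00658 for BCL2, 0.00769 for BCL2L1, 0.00595 for MCL1, 0.00581 for BCL2L11, 0.00156 for PMAIP1, 2.9e-04 for BIK, 0.00191 for BBC3, 0.0166 for BAX and 1.1e-04 for BAK1. In none of the 9 genes was 1 hairpin called higher and another lower than scramble, as happened for 6.36% of tested rows. In 2 of 24 alternatives it did happen, for BAK1 without shCREBBP.572 replicate 3 and for BAK1 and BCL2L1 under array weights. What sets the hairpins apart was not tested.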

How the results depend on the processing

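Of 1648 values of the 9 genes under alternatives, 1465 kept direction and side of the threshold, 124 lost and 31 gained a call and 28 changed sign. These values include the F tests between hairpins, which have no direction and were counted by side of the threshold alone. PMAIP1 with shCREBBP.1027 and shCREBBP.3753, BIK with shCREBBP.572 and BAK1 with shCREBBP.3753 were called in every alternative. BBC3 has no value at a mean of at least 5 FPKM. Depth in reads is unknown, and 3 libraries a group limit the exact tests. The causes of the changes below were not tested.

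Counts of called genes moved as follows. In the averaged comparison, 2 were higher under a mean of at least 5 FPKM, quantile normalization, upper quartile scaling and array weights, where 2 were also lower. With the 9 hairpin libraries as 1 group, 0 were higher and 0 lower (101 and 105 of all rows). A separate spread for each group, an alternative chosen after seeing the data, gave 0 lower in the averaged comparison (284 rows higher and 528 lower), 0 lower with shCREBBP.1027 and 0 higher with shCREBBP.572. With shCREBBP.1027, 0 were lower without a filter, without a variance trend or in a fit of the 2 groups alone, 1 was lower under quantile or upper quartile scaling and 4 under array weights, and 1 was higher without a filter. With shCREBBP.572, 1 was higher without a filter and 0 in a fit of the 2 groups, and 2 were lower under array weights. Of all called rows with shCREBBP.1027, 58% were lower, against 47.4% under quantile normalization and 47.7% under upper quartile scaling; between shCREBBP.3753 and shCREBBP.1027 the shares were 37.6%, 49.7% and 50.9%. For shCREBBP.572 the fit of 2 groups called 345 rows higher and 620 lower.

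Leaving out single libraries gave 1 to 2 genes higher and 0 to 2 lower in the averaged comparison, 1 to 2 higher and 0 to 4 lower with shCREBBP.1027, 2 to 4 higher and 0 to 0 lower with shCREBBP.3753, 0 to 3 higher and 1 to 2 lower with shCREBBP.572, and 8 to 9 differing between hairpins. Without scramble replicate 3, 2 were higher and 0 lower in the averaged comparison. Over all tested rows, that comparison called 1349 higher and 1711 lower with every library kept. These counts were 1134 and 2185 without scramble replicate 1, and 1269 and 1401 without scramble replicate 3. Rows differing between hairpins numbered 6631 in full, 7757 without scramble replicate 1 and 6747 without scramble replicate 3.

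With the replicate number as a block, 1 gene was lower with shCREBBP.1027, where BIK was not called (adjusted p = 0.0622), and MCL1 was called higher with shCREBBP.3753 (0.0415), while E2F1 and CASP10 with shCREBBP.572 were not called. Same-numbered libraries correlated at -0.06 to 0.127, over 0.1 in 2 of 18 pairs, and 7 of 12 libraries correlated best with their own number. The labels do not pair the numbers, so the main fit did not use them. Whether libraries of one number shared a batch was not tested.

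Signs changed in differences that were not called. Under quantile normalization and upper quartile scaling, BCL2 with shCREBBP.1027 was 0.115 and 0.0142, BCL2 between shCREBBP.3753 and shCREBBP.1027 was -0.182 and -0.0721, and the averaged BCL2L2 was 0.0287 and 0.00831. BCL2L11 with shCREBBP.1027 was 0.00682 under upper quartile scaling and 0.0914 under array weights. Array weights also gave -0.0724 for the averaged MCL1, -0.0294 for MCL1 and -0.154 for BAX with shCREBBP.572, and -0.0257 for BAX with shCREBBP.3753. Without single libraries, averaged differences ran from -0.0136 to 0.292 for BCL2L1, -0.0511 to 0.137 for MCL1, -0.0697 to 0.314 for BCL2L11, -0.199 to 0.011 for BAX and -0.131 to 0.0568 for BCL2L2. Likewise BCL2L11 ran from -0.23 to 0.154 with shCREBBP.1027 and from -0.337 to 0.0474 with shCREBBP.3753. With shCREBBP.3753, BCL2 ran from -0.0724 to 0.0126, BIK from -0.0924 to 0.0566 and BAX from -0.0341 to 0.176. With shCREBBP.572, MCL1 ran from -0.00142 to 0.187, BBC3 from -0.106 to 0.207 and BAX from -0.131 to 0.0791.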
